A study of Mus musculus with 8 samples.

Results

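The RNA of 10 genes of the oxygen-sensing pathway was examined in purified neonatal mouse cardiomyocytes. They are the hypoxia-inducible factor (HIF) alpha subunits Hif1a, Epas1 and Hif3a, the beta subunits Arnt and Arnt2, the prolyl hydroxylases Egln1, Egln2 and Egln3, the asparaginyl hydroxylase Hif1an, and Vhl. Members were the entries with these 10 symbols among 48440 entries of the count table, and 10 of 10 passed the filter on low counts that left 13771 genes for testing. Members were chosen by name with measured values of these libraries known, namely the CPM of Hif3a by litter, so the levels by litter are given as a description, and of the litter test on them only a count of calls is shown, from which nothing is read.

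HIF is a transcription factor made of an oxygen-regulated alpha subunit and a stable beta subunit. When oxygen is present, prolyl hydroxylases mark the alpha subunit, the Vhl ubiquitin ligase binds the marked protein and the proteasome degrades it, while the asparaginyl hydroxylase blocks its contact with coactivators. Much of this control acts on protein, which RNA counts do not measure. In the heart, HIF is best known for raising glycolytic, angiogenic and iron-handling genes in low oxygen, and the fetal heart develops in a low-oxygen setting before birth exposes it to air.

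All libraries came from C57BL6/J pups on postnatal day 2, with no treatment or genetic change named. Each of 4 litters gave 1 male and 1 female heart, so the 4 male and 4 female libraries can be compared by sex and by litter, and libraries are named here by sex and litter number (male 1 to female 4). Library totals ran from 14226342 counts in female 3 to 24910243 counts in male 1. Levels are counts scaled to a common library total (CPM). A litter is represented by 2 pups of different sex, so its spread mixes sex with all other differences between the pups. In bulk RNA, fewer cells of a type and less RNA per cell cannot be told apart.

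The cardiomyocyte label was checked with 12 marker genes, none of them at 0, whose summed level was 80368 to 93842 CPM per library. Myh6, Tnnt2 and Myl2, which encode a myosin heavy chain, a troponin and a myosin light chain, were the highest of them, with means of 23163, 12302 and 11688 CPM. Endothelial markers were low in comparison, and the 12 of them summed to between 24.1 and 204 CPM. Cdh5, Eng and Pecam1 led that list with means of 13.0, 12.2 and 8.36 CPM. The 10 fibroblast markers summed to between 42.9 and 267 CPM, led by Col3a1, Postn and Col1a1 at 39.9, 37.7 and 22.2 CPM. Of 8 macrophage markers 1 passed the filter, Cd68, a lysosomal protein gene, at 5.89 CPM on average, and the leukocyte gene Ptprc was at 0.00555 CPM.

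Promoter sequence was available for 9 of 10 members, as 250 bases before the RefSeq start site on GRCm38.p6. The letters searched were ACGTG and GCGTG on both strands, the cores of the DNA element that HIF dimers bind. Sequences are shown for Hif1a, the alpha subunit of highest level, for Hif3a, the member whose level differed most between litters, and for Egln3, a hydroxylase gene known as a HIF target. They run 5′ to 3′ on the gene's strand, with the matches in capitals. Hif1a lies at chr12:73907617-73907866 on the plus strand, Hif3a at chr7:17062428-17062677 on the minus strand, and Egln3 at chr12:54203875-54204124 on the minus strand. The RefSeq start used for Hif1a is 6492 bases downstream of the first start GENCODE M21 annotates, so its window lies inside the annotated gene, outside its exons.
Hif1a: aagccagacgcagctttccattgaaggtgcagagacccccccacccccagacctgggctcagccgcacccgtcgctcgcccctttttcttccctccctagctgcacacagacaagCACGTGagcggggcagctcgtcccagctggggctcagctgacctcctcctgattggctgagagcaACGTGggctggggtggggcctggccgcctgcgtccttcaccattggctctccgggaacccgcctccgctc
Hif3a: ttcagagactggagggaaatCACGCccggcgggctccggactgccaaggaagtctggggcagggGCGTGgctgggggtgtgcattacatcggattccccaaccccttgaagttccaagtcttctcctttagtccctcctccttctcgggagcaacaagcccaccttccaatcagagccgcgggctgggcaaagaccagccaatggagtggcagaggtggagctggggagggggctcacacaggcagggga
Egln3: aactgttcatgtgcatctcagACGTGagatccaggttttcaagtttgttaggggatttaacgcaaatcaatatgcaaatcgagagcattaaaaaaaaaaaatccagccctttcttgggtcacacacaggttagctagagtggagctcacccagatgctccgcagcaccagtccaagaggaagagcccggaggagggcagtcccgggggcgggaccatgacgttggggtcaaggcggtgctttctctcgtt

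Hif1a held 3 matches of ACGTG, of which the pair that begins 135 and 134 bases before the start is the palindrome CACGTG read on both strands, and the other begins 70 bases before it. Hif3a held 2 matches of GCGTG, 230 bases before the start on the other strand and 186 bases before it on the gene's strand. In Egln3 the match was ACGTG, 229 bases before the start. At least 1 match was found in 6 of the 9 members, with 4 before the first start site of Egln2, 2 for Egln1 and 1 for Arnt, and with none for Arnt2, Hif1an and Vhl. The windows of Arnt2, Egln1 and Vhl reach 138, 70 and 35 bases into exons that GENCODE M21 annotates for these genes, and those of Arnt and Hif1an 2 and 4 bases. In Egln1 the ACGTG that begins 68 bases before the RefSeq start is therefore within the annotated exon and not upstream of it. For comparison, 38.6% of 32851 windows of the same length held at least 1 match (16.6% for ACGTG and 28.2% for GCGTG), and 55.6% of the 12623 windows of tested genes did. At least 2 matches were present in 27.0% of the windows of tested genes, and at least 4 in 4.73%. A match describes these letters and says nothing of binding in these cells.

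To compare genes with each other, counts were divided by the longest GENCODE M21 transcript (CPM per kb). Hif1a and Egln1 stood at the top, with means of 43.3 ± 6.25 and 41.8 ± 3.51 CPM per kb (SD, n = 8), above 91.7% and 91.4% of the 13314 tested genes with a length. They were not separated, since Hif1a was above Egln1 in 6 of 8 libraries. Egln2 followed at 23.5 ± 1.56 and Arnt at 17.5 ± 1.77 CPM per kb, each above the next gene in 8 of 8 libraries. Egln3 (13.3 ± 2.15), Hif1an (12.3 ± 0.978) and Epas1 (11.5 ± 3.77 CPM per kb) overlapped, and each was above the next in 5 of 8 libraries in the first 2 steps. Epas1 was above Hif3a (6.79 ± 4.77 CPM per kb) in 6 of 8 libraries, with the order turned in both litter 3 libraries. Hif3a and Vhl (6.19 ± 0.586 CPM per kb) were not separated, as Hif3a was above Vhl in 2 of 8 libraries, again those of litter 3. Arnt2 was far below the rest at 0.0867 ± 0.0251 CPM per kb. With the union of all exons as length, Arnt moved from 17.5 to 9.46 CPM per kb, and Hif1a at 34.7 came below Egln1 at 41.8.

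**Figure D1:**
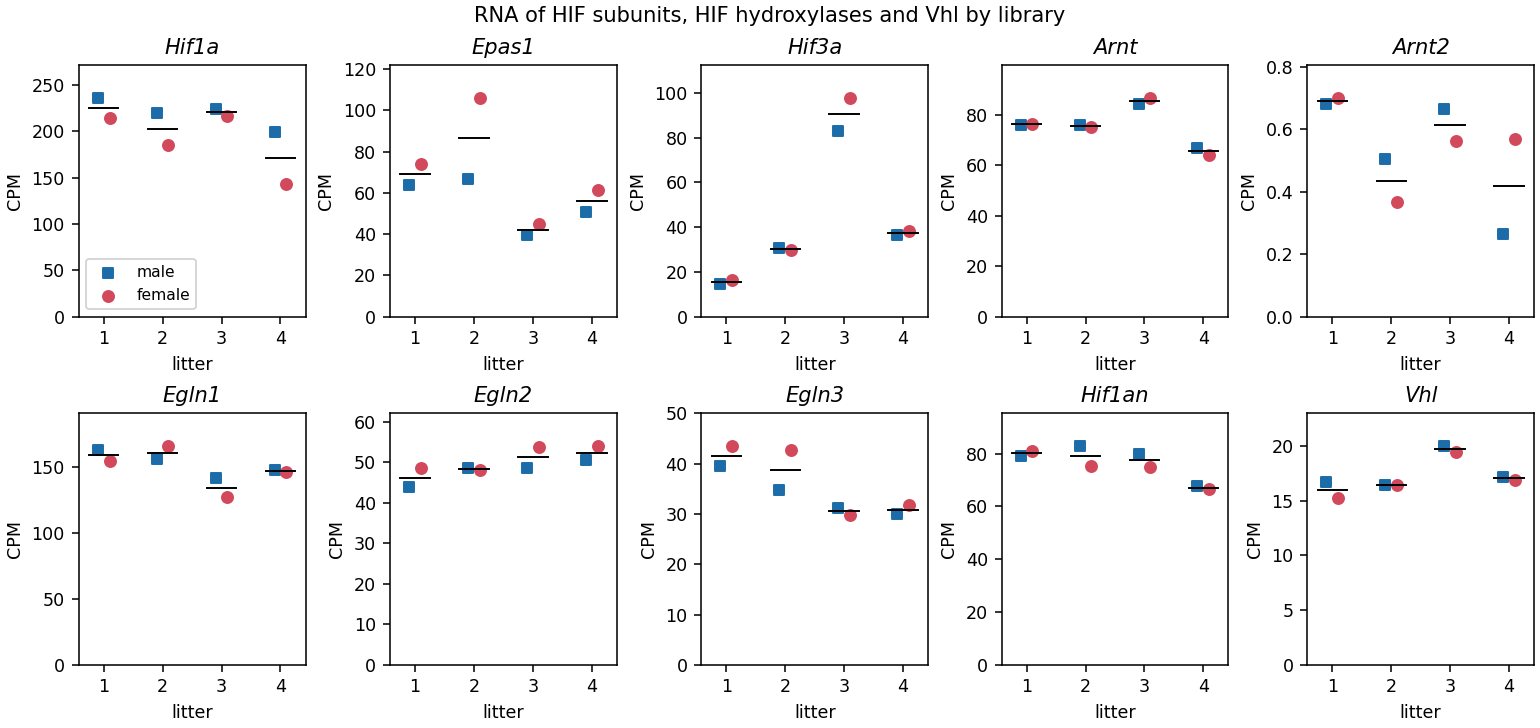
RNA level of each member in CPM (vertical axis, from 0, a separate scale for each gene) by litter (horizontal axis). Squares are male and circles female libraries, and the black line is the mean of the litter; Hif3a in litter 3, at 83.2 and 97.8 CPM, lies above the other 6 libraries, and Epas1 in litter 3, at 39.4 and 45.0 CPM, below them.

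Among the alpha subunits, Hif1a (chr12:73901375-73947530, plus strand), which encodes HIF-1 alpha and drives glycolytic genes in low oxygen, had 236, 219.7, 224 and 199 CPM in the male libraries of litters 1 to 4. The female libraries had 214, 185, 217 and 143 CPM. Female 4 was the lowest and male 1 the highest library, 1.66-fold apart, and the litters overlapped. Of 100-base windows of Hif1a transcripts, 4.09% also occur in the overlapping Gm15283 and Gm49321.

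Epas1 (chr17:86753700-86833410, plus strand) encodes HIF-2 alpha, known from endothelial cells and from control of erythropoietin and iron genes. Its levels in litters 1 to 4 were 63.7, 66.8, 39.4 and 50.9 CPM in males and 74.2, 106, 45.0 and 61.3 CPM in females. Both libraries of litter 3 were below the other 6, which ran from 50.9 to 106 CPM. The highest library was female 2, and the litter means spanned 2.05-fold, from 42.2 CPM in litter 3 to 86.5 CPM in litter 2.

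Hif3a (chr7:17031507-17062427, minus strand) encodes HIF-3 alpha, a subunit with splice forms that can dampen the other HIFs. In litters 1 to 4 it had 14.5, 30.6, 83.2 and 36.7 CPM in males and 16.4, 30.0, 97.8 and 38.5 CPM in females. Both litter 3 libraries stood above the other 6, whose highest was 38.5 CPM, and both litter 1 libraries were below all others. The litter means were 15.5, 30.3, 90.5 and 37.6 CPM, 5.86-fold from the lowest to the highest. The range over litter means was 2.51 on the log2 scale, and it was 1.34 without litter 3. None of the 100-base windows of Hif3a is shared with another gene. The counts do not separate its 4 annotated transcripts. Summed cardiomyocyte markers were 80368 and 81864 CPM in litter 3, against 81118 to 93842 CPM elsewhere. Of the 12 markers, 6 were lower and 1 higher in litter 3 by edgeR, beside 14.8 and 13.6% of all genes. The higher one was Myh7, the fetal myosin heavy chain, with 395, 596, 4850 and 1445 CPM in litters 1 to 4 (log2 difference 2.74, SE 0.08), the same litter order as Hif3a, while Myh6, the adult form, was lower (-0.61). Myh7 shares 13.9% of its 100-base windows with other genes, among them Myh6. The part of these markers in the Hif3a difference was not tested.

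Of the beta subunits, Arnt (chr3:95434388-95497240, plus strand), the common partner of the alpha subunits, had 76.0, 76.1, 84.4 and 67.0 CPM in males and 76.5, 75.1, 86.7 and 64.2 CPM in females of litters 1 to 4. Male and female of a litter lay close together, with litter 3 above and litter 4 below the other libraries, over a span of 1.31-fold between litter means. Arnt2 (chr7:84246278-84410176, minus strand), the partner known mainly from neurons, had 5 to 17 counts per library, or 0.265 to 0.701 CPM. Both libraries of litter 1, at 17 counts each, were above the other 6, and the other litters overlapped. At so few counts differences of this size were not resolved.

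The prolyl hydroxylase Egln1 (chr8:124908587-124949324, minus strand), known as the main oxygen sensor of the pathway, had 163, 156, 142 and 148 CPM in the males and 155, 166, 127 and 146 CPM in the females of litters 1 to 4. Litter 3 was below the other 6 libraries, by a small margin next to the 146 CPM of female 4. Egln2 (chr7:27158658-27166802, minus strand), which also hydroxylates HIF, was the steadiest by library, at 43.8 to 54.0 CPM or 1.23-fold. Egln3 (chr12:54178981-54203860, minus strand), whose gene is itself induced by HIF in many cells, had 39.5, 34.7, 31.2 and 29.9 CPM in males and 43.5, 42.7, 29.8 and 31.8 CPM in females. All 4 libraries of litters 1 and 2 were above all 4 of litters 3 and 4.

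Hif1an (chr19:44562850-44576274, plus strand), the asparaginyl hydroxylase that limits transactivation, ranged from 66.6 to 82.8 CPM, and both libraries of litter 4 (66.6 and 67.6 CPM) were the lowest. Vhl (chr6:113623959-113631633, plus strand), which recognises hydroxylated alpha subunits, had 20.0 and 19.5 CPM in male and female of litter 3, while the other 6 libraries had 15.3 to 17.2 CPM. Its litter means spanned 1.24-fold.

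Taking the litter means of all members, 7 of 10 spanned less than 0.5 on the log2 scale, and Hif3a and Epas1 spanned at least 1, beside a median of 0.374 over all tested genes. Without litter 3, the range of Epas1 went from 1.01 to 0.51 and that of Egln1 from 0.28 to 0.05. The ranges of Hif1a, Arnt2, Egln2 and Hif1an did not move, since litter 3 was at neither end. Both litter 3 libraries were above the other 6 for Hif3a, Arnt and Vhl, 3 of 10 members, beside 15.1% of all tested genes. They were below the other 6 for Epas1 and Egln1, 2 of 10 members, beside 16.4%. In the test of litter by edgeR, 5 of 10 members were past the adjusted threshold of 0.05, beside 32.1% of the 13771 genes, and nothing is read from this count because the litter values were known when the set was drawn up. Litter 3 held the shallowest library, female 3, with 14226342 counts, and male 3 had 22534910. The part of depth in the litter 3 values was not tested.

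As shares of the alpha subunit RNA of a library, which do not depend on library scaling, Hif1a made up 62.0 to 78.3%, Epas1 10.6 to 30.6% and Hif3a 3.55 to 22.1% of length-scaled counts. In male and female, Hif3a took 3.55 and 4.18% in litter 1, 7.55 and 7.44% in litter 2, and 19.2 and 22.1% in litter 3, and it averaged 11.4% in litter 4. The litters did not overlap in this share. In litter 3, and in no other litter, Hif3a exceeded Epas1, which had 10.6 and 11.8% there. Among the prolyl hydroxylases, Egln1 made up 49.0 to 56.0%, Egln2 25.7 to 35.4% and Egln3 14.7 to 19.8%, in the same order in all 8 libraries.

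**Figure D2:**
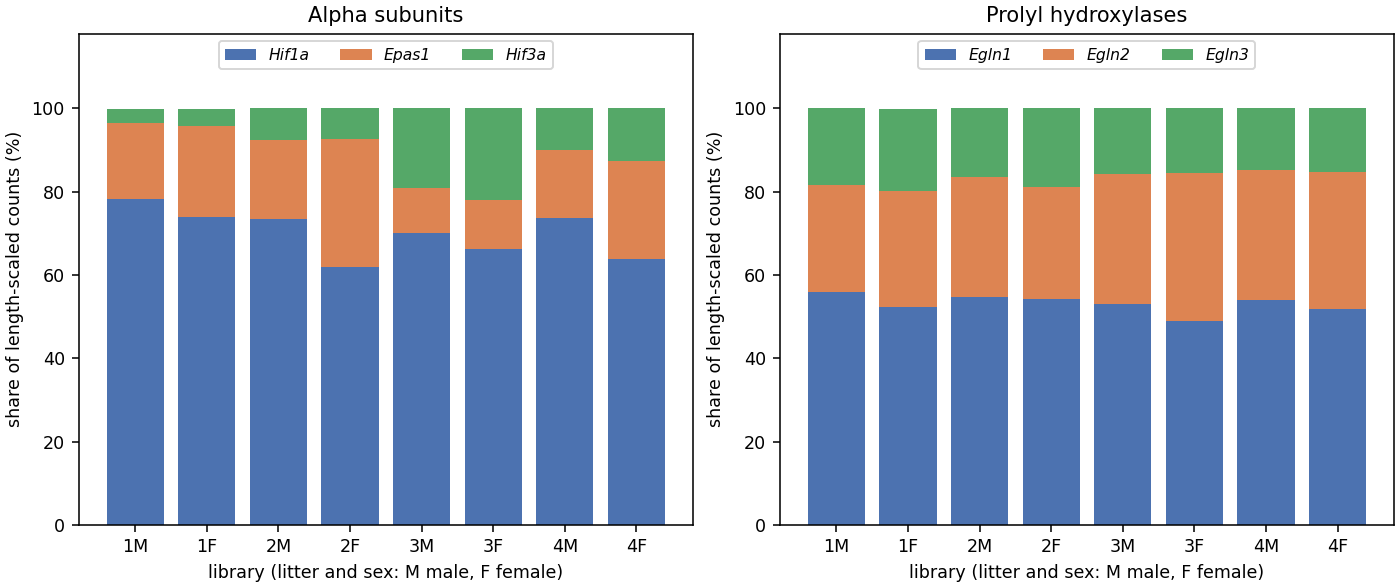
Shares of length-scaled counts (percent, vertical axis) of the 3 alpha subunits (left) and the 3 prolyl hydroxylases (right) in each library (horizontal axis, litter number with M for male and F for female). The Hif3a segment is widest in litter 3, at 19.2 and 22.1%, and narrowest in litter 1, at 3.55 and 4.18%, while the hydroxylase shares keep 1 order throughout.

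Between the sexes, no member differed past the threshold, with or without litter in the fit. EdgeR's quasi-likelihood test without a litter term called 0 of 10 members at an adjusted p under 0.05, beside 0.0436% of all genes (6 genes), and 0 of 10 at an unadjusted p under 0.05, beside 2.22%. DESeq2 called 0 of 10 as well, adjusted or not. In this fit the widest interval was that of Hif3a, with a male minus female log2 difference of -0.13 (95% interval -1.51 to 1.26), and that of Egln2 was among the narrowest, at -0.08 (-0.29 to 0.13). For Hif1a the difference was 0.23 (SE 0.12, 95% interval -0.06 to 0.51), where males averaged 219.6 ± 15.6 CPM and females 189 ± 34.5 CPM (n = 4, SD). With 1 library left out it ran from 0.12 (without female 4) to 0.29 (without female 1). Epas1 went the other way, at -0.37 (SE 0.24, 95% interval -0.96 to 0.23), where males averaged 55.2 ± 12.6 CPM and females 71.7 ± 25.9 CPM. Its difference ran from -0.14 (without female 2) to -0.55 (without female 3) when 1 library was left out. For 0 of 10 members did the 4 males lie above the 4 females, beside 1.29% of all genes, and for 0 of 10 the reverse, beside 0.784%.

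Male and female were then compared within litters. Hif1a and Vhl were higher in the male in 4 of 4 litters, 2 of 10 members beside 10.9% of all genes, though Vhl in litter 2 was level at 16.4 CPM in both sexes as rounded here, and Epas1 was lower in the male in 4 of 4 litters, 1 of 10 beside 9.36%. With litter as a block, edgeR still called 0 of 10 members at the adjusted threshold, beside 0.211% of genes (29 genes). At an unadjusted p under 0.05 it called 2 of 10, beside 11.6%. These were Hif1a, with a log2 difference of 0.24 (SE 0.07, adjusted p = 0.28), and Epas1, with -0.33 (SE 0.08, adjusted p = 0.175). Their 95% intervals, which are not adjusted for the number of genes, were 0.02 to 0.46 and -0.58 to -0.09. For Hif3a the block narrowed the interval to between -0.31 and 0.10, and the widest was then that of Arnt2, from -1.13 to 1.02. Summed endothelial markers were lower in the male in litters 1 (24.1 against 86.9 CPM) and 2 (127 against 204 CPM), level in litter 3 (27.4 and 27.3 CPM) and higher in the male in litter 4 (46.9 against 36.4 CPM). Gene by gene, in the blocked edgeR fit, 11 of the 12 had a male minus female log2 difference below 0, the direction of Epas1, with a median of -0.635. Of the 12, 6 had an unadjusted p under 0.05, beside 11.6% of all genes, and 1 was past the adjusted threshold, beside 0.211%, the tight junction gene Cldn5, which was lower in males (-2.21, SE 0.35, adjusted p = 0.0259). The most abundant, Cdh5, Eng and Pecam1, had differences of -0.87, -0.30 and -0.71 and did not pass. Of 10 fibroblast markers 6 were past the threshold, all of them higher in males. Their part in the differences of Hif1a and Epas1 was not tested.

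The share of Hif1a among the alpha subunits was 73.9 ± 3.36% in males and 66.5 ± 5.23% in females (SD, n = 4), a difference of 7.45 percentage points that did not pass an exact two-sided permutation test (p = 0.114, adjusted over 6 shares 0.343). It was higher in the male in 4 of 4 litters. For Epas1 the male minus female difference was -5.95 percentage points (exact permutation p = 0.257), and for Hif3a it was -1.50 (exact permutation p = 0.743). The Epas1 share was highest in female 2, at 30.6%, where the other females had 11.8 to 23.5%. Egln1 had 54.4 ± 1.22% of the prolyl hydroxylase RNA in males and 51.8 ± 2.17% in females (exact permutation p = 0.0857, adjusted 0.343), again higher in the male in 4 of 4 litters. The smallest p this design allows is 0.0286, and 0.125 when signs are flipped within litters, the value reached by Hif1a, Epas1 and Egln1.

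Genes downstream of HIF were described from 71 target genes in 4 lists by function, of which 62 were tested, and from 23 partners and regulators of HIF. These lists and the choice of litter 3 were made with the Hif3a values known. The test of litter by edgeR called 40 of 62 targets (64.5%) and 11 of 23 partners (47.8%), beside 32.1% of all genes. Without litter 3, it called 17 of 63 targets and 5 of 23 partners, beside 13.7%. Leaving out female 3 alone gave 26 targets, beside 21.8% of all genes, and leaving out female 1, male 3 or female 3 gave 7 partners each, beside 21.4, 24.1 and 21.8%. By sex, edgeR called 0 of these 85 genes at the adjusted threshold with or without the litter block, and 1 and 11 of them at an unadjusted p under 0.05, beside 2.22 and 11.6% of all genes. DESeq2 called 0 and 1. The 9 targets that were not tested were Ndufa4l2, Cox4i2, Mgarp, Angpt2, Epo, Epor, Trf, Car9 and Car12, and Epo, the kidney hormone gene that is a textbook HIF-2 target, had 0 counts in all 8 libraries.

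Litter 3, in which Hif3a was highest, was then set against the mean of the other 3 litters. Among the 62 targets 13 were higher and 29 lower in litter 3, beside 13.6% (1871) and 14.8% (2032) of all genes in those directions, and the 20 others did not pass. The median difference was -0.25 on the log2 scale, beside 0.000127 over all tested genes. Without female 3, 7 targets were higher and 16 lower, while over all genes the calls fell to 5.23% higher (731) and 6.96% lower (973). Without male 3 they fell to 7.93 and 8.02% of all genes. With library size as the only scaling, all genes split into 2419 higher and 1698 lower, and the targets into 13 and 28.

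**Figure D3:**
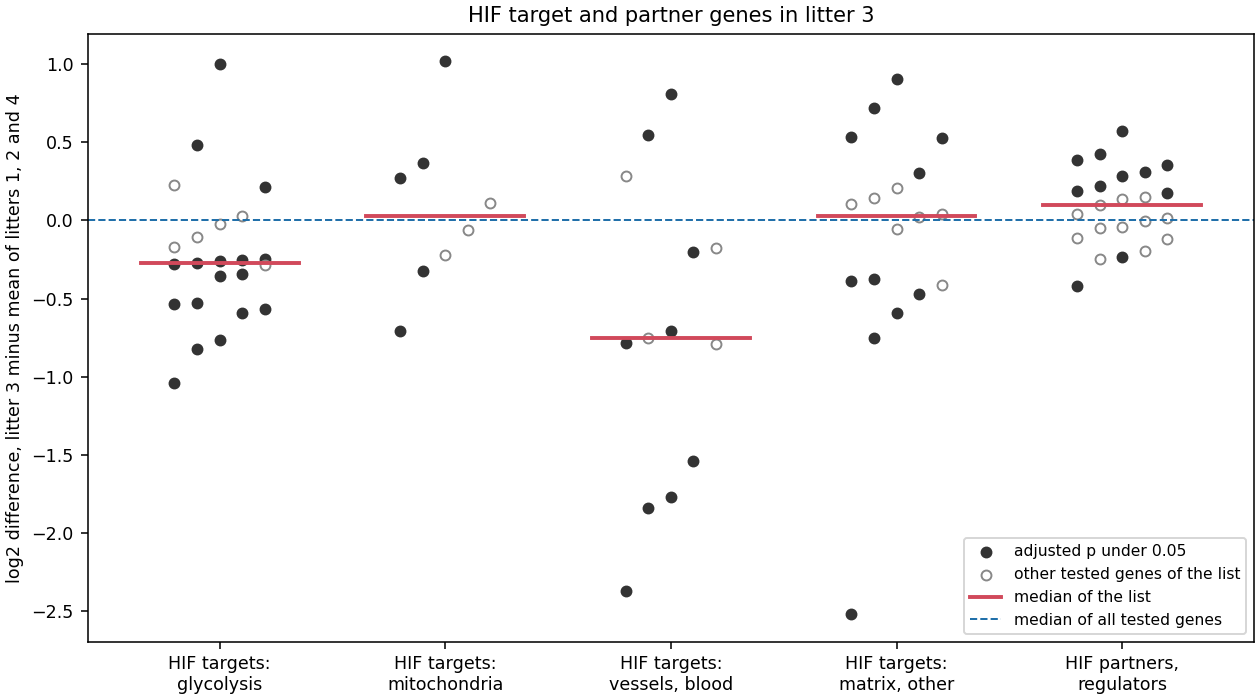
Log2 difference of litter 3 from the mean of litters 1, 2 and 4 (vertical axis) for each tested gene of the 4 HIF target lists and the partner list (horizontal axis). Filled points have an adjusted p under 0.05, open points do not, red lines are list medians and the dashed line is the median of all tested genes; the glycolysis list has 14 filled points below 0 and 3 above.

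Of the 23 targets in glycolysis and glucose use, 14 were lower and 3 higher in litter 3, beside 14.8 and 13.6% of all genes, with a list median of -0.27. In the same comparison 6 of 12 cardiomyocyte markers (Myh6 -0.61, Actn2 -0.36 and Tnnc1 -0.36 among them) and 5 of 8 mural markers were lower, beside 14.8% of all genes, and their part in the glycolysis values was not tested. Hk2, the muscle hexokinase that traps glucose, had 187, 173, 97.8 and 148 CPM in litters 1 to 4, a log2 difference of -0.82 for litter 3 (SE 0.07, edgeR adjusted p = 1.4e-05). Pfkl, a phosphofructokinase subunit, had 159.8, 147, 84.0 and 113 CPM (-0.77, SE 0.06). Ldha, which turns pyruvate into lactate, had 978, 829, 603 and 803 CPM (-0.57, SE 0.06), and Pkm, pyruvate kinase, had 1292, 1166, 809 and 1097 CPM (-0.59, SE 0.07). All 4 had their lowest litter mean in litter 3. The 3 that were higher were Pfkfb3, which makes the activator of phosphofructokinase, at 8.95 CPM against 3.71 to 4.89 CPM, Aldoc (0.48) and Pdk1 (0.21), a kinase that shuts off pyruvate dehydrogenase. Gapdh and Gpi1, the most abundant genes of this list not past the litter test, differed by -0.10 and -0.03, and Gpi1 turned to 0.02 with library size as the only scaling. Pkm and Gapdh share 9.82 and 18.2% of their 100-base windows with other genes, mostly pseudogenes, so part of their counts is uncertain. Without female 3 the median of the glycolysis list was -0.21, with fewer calls in both directions, as over all genes.

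The 8 tested targets in mitochondria and mitophagy were split, with 3 higher and 2 lower, beside 13.6 and 14.8% of all genes. Their median of 0.03 turned to -0.06 without male 3 and to -0.22 with no filter on low counts, which admits 11 of these genes. Mxi1, a repressor that opposes Myc, had 38.1, 48.1, 97.6 and 56.2 CPM in litters 1 to 4 (log2 difference 1.02, SE 0.07, edgeR adjusted p = 1.6e-06). Bnip3 and Bnip3l, receptors that mark mitochondria for removal, were higher by 0.37 and 0.27. Higd1a, which binds respiratory complexes, was lower at 56.1 CPM against 83.4 to 98.9 CPM (-0.71, SE 0.06). Lonp1, a mitochondrial protease, and Fam162a did not pass, at -0.06 and -0.22. Bnip3, Higd1a, Bnip3l and Fam162a share 33.5, 32.3, 15.3 and 11.1% of their windows with other genes. Without female 3 their median was 0.06, with fewer calls in both directions, as over all genes. Leaving out female 1, male 3 or the whole of litter 1 also gave fewer lower genes, as over all genes.

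Of the 13 tested vascular, blood and iron targets, 7 were lower and 2 higher in litter 3, beside 14.8 and 13.6% of all genes. Their median was -0.75, and it became -0.20 when litter 2 was left out. Tfrc, the transferrin receptor that imports iron, had 416, 352, 231 and 332 CPM (-0.71, SE 0.07, edgeR adjusted p = 2.7e-05). Kdr, a VEGF receptor of endothelial cells, had 6.26, 17.3, 2.27 and 3.37 CPM (-1.54, SE 0.40), and Pdgfb, a growth factor that recruits mural cells, had 2.14, 4.84, 0.749 and 1.53 CPM (-1.84, SE 0.28). Nos3, the endothelial nitric oxide synthase, had its highest mean in litter 2 (10.4 CPM) and did not pass in litter 3 (-0.75, SE 0.31, edgeR adjusted p = 0.0922). Slc11a2, an iron transporter, did not pass (-0.18), and Adm, a vasodilator peptide, was higher by 0.55 in this comparison though not past the test over all litters. Vegfa, the ligand, had 559, 520, 437 and 399 CPM and was lower in litter 3 by 0.20 on the log2 scale relative to the others, with its lowest mean in litter 4. Without female 3 the list median was -0.56, and without male 3 it was -0.83, with fewer calls in both directions, as over all genes. Without male 1 fewer of these genes were called higher, as over all genes. Kdr, Flt1 and Tek are also on the endothelial marker list.

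Endothelial markers are given here because Epas1 and some vascular targets are known from endothelial cells. All 12 were past the litter test by edgeR, beside 32.1% of all genes, and 9 of 12 were lower in litter 3 and 0 higher, beside 14.8 and 13.6% of all genes. Their summed level was 24.1 and 86.9 CPM in litter 1, 127 and 204 CPM in litter 2, 27.4 and 27.3 CPM in litter 3, and 46.9 and 36.4 CPM in litter 4 (male and female). Female 2 was the highest library both for this sum and for Epas1. Male 1 had the lowest endothelial sum but 63.7 CPM of Epas1, above both litter 3 libraries. The part of endothelial RNA in the Epas1 and vascular values was not tested.

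**Figure D4:**
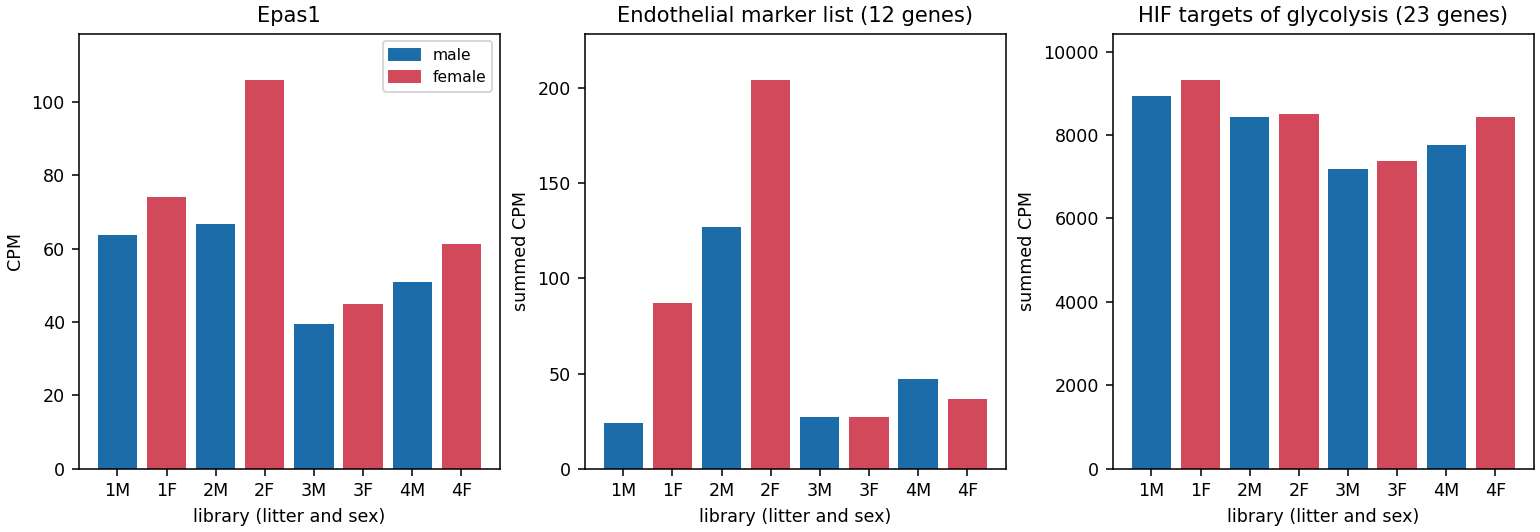
Epas1 in CPM (left), the summed CPM of 12 endothelial markers (middle) and the summed CPM of 23 glycolytic HIF targets (right) for each library (horizontal axis, litter number and sex, bars from 0). Female 2 is highest for Epas1 (106 CPM) and for the endothelial sum (204 CPM), and the glycolytic sum is lowest in the 2 libraries of litter 3, at 7193 and 7367 CPM.

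Of the 18 tested targets in matrix, acid-base and core HIF responses, 5 were higher and 6 lower in litter 3, beside 13.6 and 14.8% of all genes. Their median was 0.03, and it turned to -0.01 with no filter on low counts. P4ha1, a collagen prolyl hydroxylase, had 18.3, 17.2, 9.59 and 12.5 CPM (-0.75, SE 0.11, edgeR adjusted p = 0.000333), and Lox, a collagen cross-linking enzyme, had 0.914, 2.29, 0.322 and 2.25 CPM (-2.52, SE 0.41). Ddit4, an mTOR inhibitor, was higher at 36.8 CPM against 19.3 to 23.8 CPM (0.72, SE 0.09), and so was Ndrg1, at 15.6 CPM against 6.35 to 9.12 CPM (0.91, SE 0.13). Kdm4b, a histone demethylase, did not pass, at 0.02. Beside the matrix genes, the fibroblast markers summed to 62.6 and 42.9 CPM in litter 3, while the other libraries had 123 to 267 CPM, with 8 of 10 lower, beside 14.8% of all genes, and 0 at 0 in all libraries, and their part was not tested. Without female 3 the median of these targets was 0.04, with fewer calls in both directions, as over all genes.

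Among the 23 partners and regulators, 9 were higher and 2 lower in litter 3, beside 13.6 and 14.8% of all genes, with a median of 0.10. Siah2, a ubiquitin ligase that acts on prolyl hydroxylases, had 18.5 CPM in litter 3 against 11.8 to 12.3 CPM (0.57, SE 0.11, edgeR adjusted p = 0.00262). Sirt1, a deacetylase, had 29.4, 28.9, 39.2 and 26.5 CPM (0.43, SE 0.07), and Ep300, a HIF coactivator, had 77.1, 84.1, 93.7 and 61.7 CPM (0.31, SE 0.07). The chaperone Hsp90ab1 was higher by 0.22 with its lowest mean in litter 1 (1013 CPM). Crebbp, the other coactivator, and Usp20, a deubiquitinase, were higher by 0.19 and 0.18 in this comparison and not past the test over all litters. These counts depended on single libraries, with 2 higher without male 3, 3 without female 3 and 5 without litter 1, beside 7.93, 5.23 and 10.2% of all genes. The lower genes numbered 4 without male 1 and 1 without female 1, male 3, female 3, litter 1 or litter 4.

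Genes whose pattern over the 8 libraries was most like that of Hif3a were found by the root mean square difference in log2 CPM after each gene's mean was removed, which is a description. The closest were 2410006H16Rik (0.157), 9530026P05Rik (0.285), M1ap (0.286), Pbld2 (0.288) and Flrt3 (0.300), beside a median of 0.920 over all other tested genes. 2410006H16Rik had 6.17, 9.72, 28.3 and 12.2 CPM in litters 1 to 4, the same order as Hif3a. For Epas1 the closest were Capn3 (0.0966), Rasgrp2 (0.103), 1810011O10Rik (0.109), Tcirg1 (0.125) and Col4a2 (0.126), beside a median of 0.459. Col4a2, a basement membrane collagen, had 467, 532, 282 and 382 CPM, lowest in litter 3 and highest in litter 2 as Epas1 was.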

How the data were processed

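RNA was measured in 8 libraries of purified cardiomyocytes, with 4 litters each giving a male and a female pup. Per the labels' protocols, 1 µg of column-purified total RNA entered a stranded total RNA kit, and 20 M single-end reads of 100 bases per sample were aimed at on a NovaSeq instrument. The labels also call the molecule poly(A) RNA, so which RNA was selected is not settled here. The authors deposited raw read counts per gene symbol, whole numbers summing to 14226342 to 24910243 per library. Per the submitters' processing notes, STAR 2.7.3a and mm10 were used. The counting program, annotation and strand setting are not given in the sources used here, so reads of overlapping genes may be mixed.

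The members, the gene lists and the choice of litter 3 were made with earlier results of these data known. Counts were analysed in R 4.3.3 with edgeR 4.0.16 (filterByExpr on sex, TMM scaling with factors 0.951 to 1.024, quasi-likelihood F test, Benjamini-Hochberg adjustment over 13771 genes, threshold 0.05), with limma 3.58.1 installed for it. Sex was tested without and with litter as a block, and litter with sex as a term, which leaves 3 residual degrees of freedom. Standard errors are the log2 difference divided by the square root of F, and 95% intervals use the t distribution with the residual degrees of freedom, 6 without and 3 with the block. EdgeR's p-values also draw on a variance shared over genes, so these intervals are wider than those p-values imply. Shares were tested by exact permutation over the libraries with scipy 1.17.1. Levels are CPM, and between genes CPM per kb of the longest GENCODE release 21 mouse transcript, whose build is the one named in the notes. Sequences came from the RefSeq promoter table. DESeq2 1.42.0, other scalings, other filters and leaving out each library or litter were the alternatives. The union exon length and the counts and medians per target list with a library or litter left out were added after seeing the data.

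All members were named. From each target and partner list, the 4 genes of smallest adjusted p in the litter test and the 2 most abundant genes not past it were named, and from 3 marker lists the 3 most abundant. Of the genes this rule names, 1 is not reported here. For Hif3a and Epas1 the 5 most alike genes were named. Further genes (Pfkfb3, Aldoc, Pdk1, Vegfa, Flt1, Tek, Cldn5, Ptprc, Cd68, Myh7, Actn2, Tnnc1, Acta2, Abcc9, Rgs5, Tbx18, Msln, Clock, Ncoa1, Ncoa2, Arntl2, Sim1, Sim2 and the untested targets) were chosen after their values were seen. Male and female of a litter carry the same number in the labels, which pairs them. Their deviations from the sex means correlated at 0.367 to 0.696 over genes within litters and at -0.482 to 0.27 between litters. Between libraries of 1 sex, chi-square per degree of freedom was 9.56 to 44.9, so none repeated another within sampling noise. Each library has its own sex and litter label and is taken as 1 pup. In the sex test without litter, p-values measure the spread between pups of 1 sex. With litter in the fit, they measure the spread left after sex and litter. A litter difference cannot be told apart from handling that its pups shared. The tests were tested on simulated counts with 200 genes changed by 1 on the log2 scale. The sex test (13644 genes) recovered 99.5%, the litter test (13650 genes) 96% and the litter 3 comparison (13638 genes) 97.5%, with 2.45, 2.04 and 2.01% of calls false. With no gene changed, the calls numbered 0, 0 and 1. The changed genes were drawn from those with higher counts. Apart from them, the simulated counts held no litter differences, and their spread came from the fit with sex and litter. The recovery by the sex test without litter therefore does not cover genes that differ between litters. For Hif3a the SE of that test was 0.565.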

Additional observations from a re-analysis of the deposited data

Results flagged for a closer look

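Of 58 groups of 4 libraries examined, 2 held a library far from the other 3, where chance would give about 2.9, since about 1 in 20 groups is picked out this way. The summed level of the bHLH-PAS genes outside the HIF set was 305 CPM in female 4, and 378 to 389.8 CPM in the other females. The male of the same litter had 307 CPM. The summed level of the mural cell markers was 917 CPM in female 3, and 1366 to 1434 CPM in the other females, and the male of that litter had 942 CPM. Acta2 and Abcc9, with means of 746 and 460.2 CPM over all libraries, made up most of this sum.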

How the results depend on the processing

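No member passed the sex test under any alternative run (other scalings, filters, DESeq2, the litter block, each library left out). The count of all genes called by sex rose from 6 to 29 with litter as replicate block, and no HIF target or partner was among the calls. The paired share tests by sign flips within litters could give no call, since their smallest p is 0.125 and the difference (7.45 percentage points for Hif1a) is the same by construction. Leaving out 1 library or litter moved the litter calls over all genes between 1898 and 4586, those of HIF targets between 17 and 41 and those of partners between 5 and 13. For litter 3, genes higher ranged from 731 to 2020 and lower from 973 to 2157, targets higher from 7 to 13 and lower from 16 to 33, and partners higher from 2 to 9 and lower from 1 to 4. Sex differences changed sign when 1 library was left out for Hif3a (-0.698 to 0.52), Arnt (-0.0412 to 0.0697), Arnt2 (-0.211 to 0.143) and Egln1 (-0.0354 to 0.0928). So did the share differences of Hif3a (-4.55 to 1.98 percentage points) and Egln2 (-2.78 to 0.0829), and the litter 3 difference of Lonp1 (-0.143 to 0.0122). The litter 3 differences of Gpi1 (-0.0586 to 0.0178) and Kdm4b (-0.00533 to 0.0458) changed sign when litter 4 or litter 1, respectively, was left out, and that of Gpi1 also with library size alone (0.0184). None of these was past a threshold, and the cause was not tested. Without litter 3 there were 1898 calls over all genes, and the cause was not tested. Of the values of single genes, 1024 kept their side and direction, 58 were no longer past the threshold, 21 came past it, 9 with no test moved by more than 1 SD and 12 changed sign. Counts of 5 to 17 limit what can be said of Arnt2.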

Other observations

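The HIF subunits belong to the bHLH-PAS family, DNA-binding proteins that pair through a shared domain, and 14 further genes of the family and its p160 coactivators were looked at. Of these 10 were tested, Sim1 and Sim2 had 0 counts in all 8 libraries, and 4 of 10 were past the litter test by edgeR, beside 32.1% of all genes, namely Clock, Ncoa1, Ncoa2 and Arntl2. In litter 3, Ncoa2, a p160 coactivator, was higher at 113 CPM against 73.3 to 93.1 CPM (log2 difference 0.39, SE 0.06, edgeR adjusted p = 0.000553), and so were Arntl2 (0.51) and Clock (0.19), both of the circadian branch, while 0 of 10 were lower, beside 13.6% of all genes higher and 14.8% lower. Clock had 103, 96.0, 107 and 77.0 CPM in litters 1 to 4, with litter 4 the lowest. By sex, edgeR and DESeq2 called 0 of 10, at the adjusted threshold and at an unadjusted p under 0.05.

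The remaining marker lists gave these sums. Mural markers summed to 917 to 942 CPM in litter 3 and 1338 to 1459 CPM elsewhere, with 5 of 8 lower in litter 3, Acta2 among them, beside 14.8% of all genes. Erythroid markers ran from 100.3 to 544 CPM, with the highest value in male 3, and 2 of 6 tested were higher in litter 3, beside 13.6% of all genes. Epicardial markers summed to 23.8 and 24.1 CPM in litter 3 and 13.1 to 18.5 CPM elsewhere, a sum carried by Tbx18 (21.7 CPM in litter 3, log2 difference 0.83). Of 5 tested, 1 was higher and 1 lower, Msln (-1.29), with a median of -0.41. Macrophage markers summed to 3.18 to 9.35 CPM.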
